A study of Mus musculus with 36 samples.

Results

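Nuclear-encoded subunits of the oxidative phosphorylation complexes were followed in 3 tissues, namely liver, white adipose tissue (WAT) and its brown counterpart (BAT), of mice given an amino acid mixture or water. The list held 46 genes, taken by exact gene symbol in the annotation of the array. Of these, 45 were measured, with 100 of the 45037 probe sets tested, and Cox7b had no probe set with that symbol alone. Complex I had 21 measured members, complex II 3, complex III 6, cytochrome c 1, complex IV 10 and complex V, the ATP synthase, 4. Each gene was read from the probe set with the highest mean over the 36 arrays.

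The arrays were Affymetrix Mouse Genome 430 2.0 chips of 12 male ddY mice, an outbred stock, each with 1 array of liver, WAT and BAT. Mice were 5 weeks old on arrival, were kept for 1 week, and then received 37.5 µL per gram of body weight by feeding tube once a day for 5 days. The control group (labelled DW) had 7 mice, numbers 1 to 7, which received water. The CAAM group had 5 mice, numbers 2, 4, 5, 6 and 7, which received a 1.8% solution of the casein amino acid mixture, and a number shared by both groups is not the same mouse. Food was withdrawn before the last dose and tissues were taken 4 h after it. The study left out 2 CAAM mice for abnormal livers, and whether this bears on the values was not tested. Comparing tissues asks how much the level of the respiratory chain transcripts differs between a liver, a fat store and a heat-producing fat, and comparing CAAM with water within each tissue asks whether the mixture moved them.

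Oxidative phosphorylation is carried out in the inner mitochondrial membrane. Complex I takes electrons from NADH and complex II, which is also the succinate dehydrogenase of the citric acid cycle, takes them from succinate. Both pass them through ubiquinone to complex III, cytochrome c carries them to complex IV, cytochrome c oxidase, and the proton gradient built on the way drives the ATP synthase. Brown adipocytes are packed with mitochondria and let protons return through the uncoupling protein Ucp1, which releases heat, whereas white adipocytes hold few mitochondria around a large lipid droplet. All 46 listed genes lie in the nucleus, and NRF1, the ETS factor GABP, YY1 and the estrogen-related receptors are known regulators of many of them.

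The unit of all values is a score of the distribution free weighted (DFW) method. The level of a score lies on a log2-like scale, but its deviations between arrays of a tissue are shrunk by a weight of the probe set, so that a difference within a tissue is no log2 fold change. Such differences are therefore also given in SD, the pooled standard deviation between mice within groups. The tissues carried their own markers: Alb, the serum albumin gene, scored 15.0 in liver of the water mice against 6.98 in WAT and 6.54 in BAT, the leptin gene Lep scored 11.3 in WAT against 6.43 and 7.34, and Ucp1 scored 14.2 in BAT against 6.27 and 6.44. Some arrays lay apart from the rest of their tissue. In WAT, the deviation of an array from the median array had an SD over all probe sets of 0.0761 to 0.155 in water mice 1 and 2 and CAAM mice 6 and 7, and of 0.0120 to 0.0418 in the other 8. In BAT, water mice 1, 3 and 7 and CAAM mouse 2 had 0.0374 to 0.0861, the other 8 mice had 0.00544 to 0.0321, and the same 4 arrays had the highest scores of skeletal muscle genes.

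RefSeq promoters, 250 bases before to 50 bases after the gene start in GRCm38.p6, were found for 32 of the 45 members, with 35 promoters in all. The core of the NRF1 motif, GCGCATGCG on either strand, was in the window of 4 members (Ndufa8, Cox6a1, Cycs and Uqcrc1), which is 11.4% of the member promoters against 1.75% of 32851 promoters. The stretches around the match are shown for the 3 members in which it lay before the gene start, since they belong to different complexes and reappear in the results that follow. The capitals mark the motif as it runs on the strand of the gene.
Ndufa8 (chr2:36049339-36049377, minus strand): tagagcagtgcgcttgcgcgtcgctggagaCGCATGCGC
Cox6a1 (chr5:115349082-115349150, minus strand): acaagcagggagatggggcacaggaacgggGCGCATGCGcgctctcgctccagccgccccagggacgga
Cycs (chr6:50566592-50566660, minus strand): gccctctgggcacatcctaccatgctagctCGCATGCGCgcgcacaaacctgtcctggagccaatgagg
In Ndufa8 the match ended 1 base before the start, in Cycs it lay 61 to 53 bases before it, and in Cox6a1 it lay 162 to 154 bases before it and overlapped a match on the other strand. The YY1 site AAGATGGCG was in the windows of Ndufa9, Ndufs4 and Ndufs7, 8.57% of the member promoters against 1.403% of all. The ETS site CCGGAAGT was in those of Ndufs3 and Cox8a, 5.71% against 3.89%. No member held the estrogen-related receptor element TCAAGGTCA, which 0.423% of all promoters held, and a window without these letters says nothing of the factor.

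The subunits scored highest in BAT. In the water mice, the median member had a score of 13.4 in BAT, 12.2 in liver and 11.9 in WAT. The order BAT, liver, WAT held for 34 members, BAT, WAT, liver for 9, and liver, BAT, WAT for Cox4i2 and Cox6a2. Within a tissue the SD of a member between the 7 water mice was at most 0.000194 score units in liver and 0.000183 in WAT, and in BAT it was at most 0.000101 for all members but Cox6a2, at 0.247. Since fat and liver are mixtures of cells, more cells of a type and more RNA per cell cannot be told apart.

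**Figure D1:**
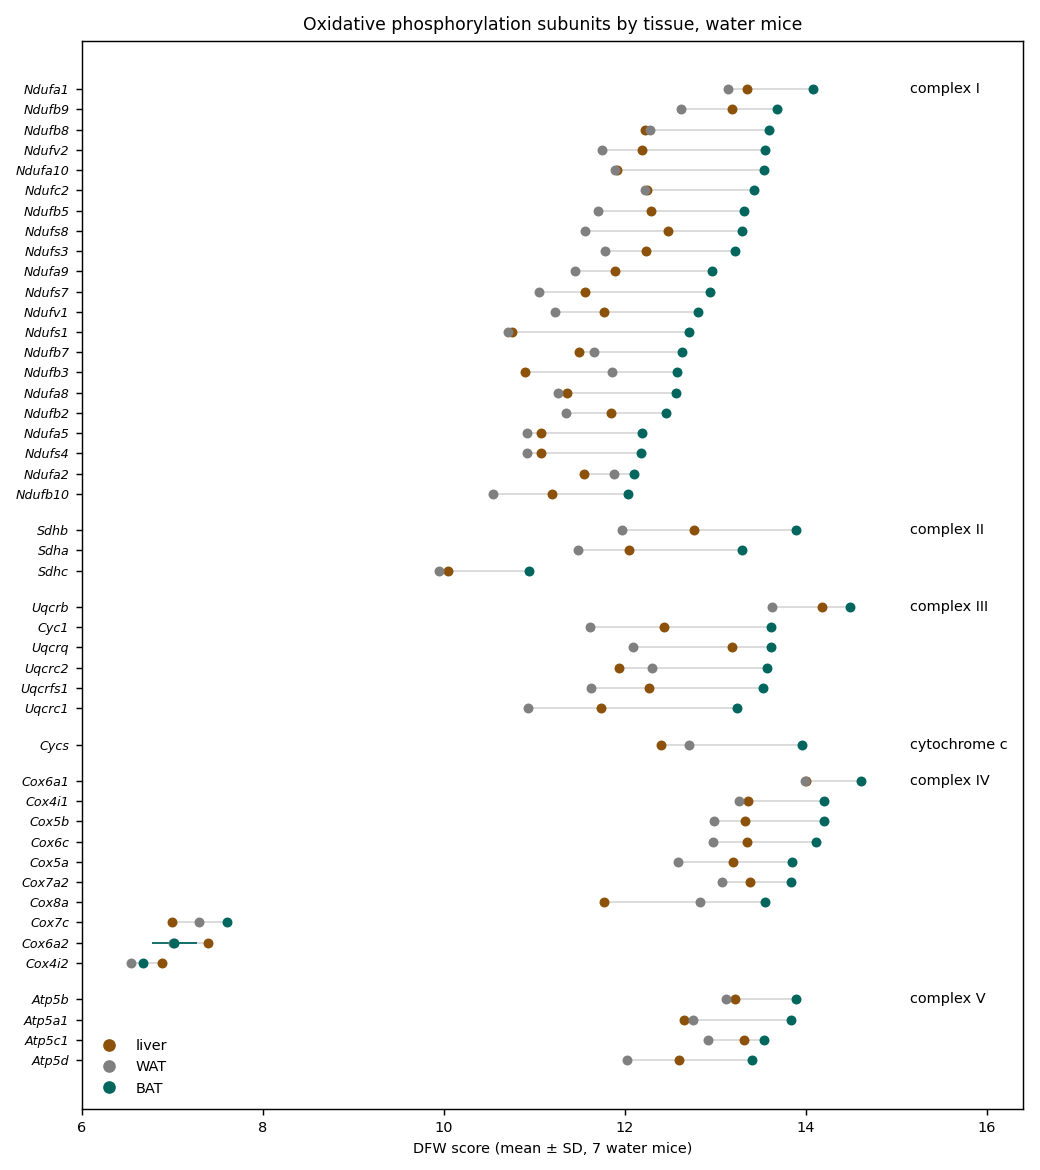
Mean DFW score of the 45 members in liver, WAT and BAT of the 7 water mice, with 1 line per gene grouped by complex, and with SD bars, which are smaller than the points except for Cox6a2 in BAT. The BAT point is the rightmost of the 3 for 43 genes, and Cox4i2 and Cox6a2 are the exceptions.

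BAT had a higher score than WAT in 45 of 45 members, with a median difference of 1.26 score units, where 36.6% of all probe sets were higher in BAT. By limma on the within-mouse differences, 99.7% of all probe sets passed an adjusted p of 0.05 for BAT against WAT, 99.9% for BAT against liver and 99.8% for liver against WAT, so that passing says nothing of a gene here. A difference of at least 1 score unit, with the same sign in each of the 7 mice, is used in its place. As most members differed so little between mice of a tissue, the size limit alone decided for the members. The condition on the sign adds no support. This was met by 30 of 45 members for BAT over WAT, against 1.77% of all probe sets. BAT exceeded liver in 43 of 45 members with a median of 1.03, where 47.5% of all probe sets were higher in BAT, and by at least 1 unit in 23 members, against 4.6% of all. The tissues appear to have been summarised separately by the authors, and all 3 comparisons draw on the same arrays.

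Most members are bright, and bright probe sets differed more between tissues than dim ones. A mean score of 11 or over, a limit chosen after the values were seen, was met by 41 members and 1001 probe sets. Among these probe sets 45.6% were higher in BAT than in WAT and 19.6% by at least 1 unit, while the 41 members were all higher and 30 of them by at least 1 unit. Against liver, 55.9% of the 1001 probe sets were higher in BAT and 23.6% by at least 1 unit, with 41 and 23 of the 41 members.

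**Figure D2:**
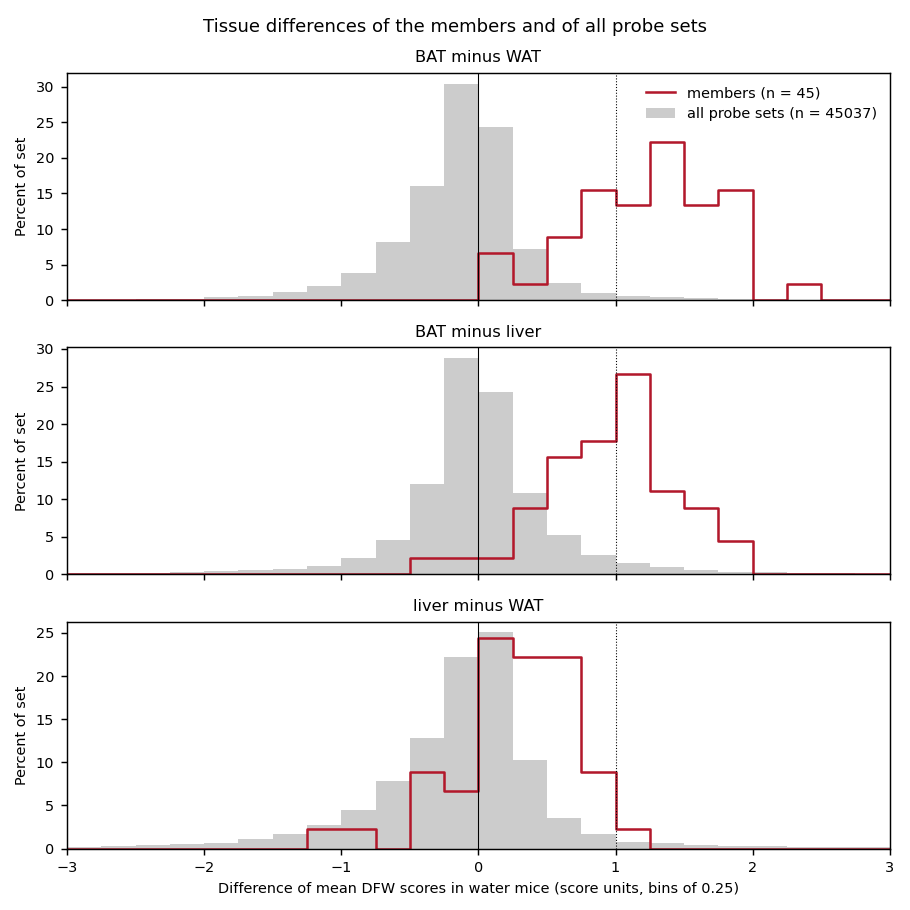
Distribution of the difference of mean DFW scores between tissues in water mice, in bins of 0.25 score units, as percent of all 45037 probe sets (bars) and of the 45 members (line), with a dotted line at 1 score unit. The members lie to the right of the bulk of probe sets for BAT minus WAT and BAT minus liver, with medians of 1.26 and 1.03, and close to it for liver minus WAT, with a median of 0.345.

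Complex I was higher in BAT than in WAT in 21 of 21 members, by 1.32 units at the median and by at least 1 unit in 17. Ndufs1, which carries iron-sulfur clusters in the peripheral arm, had the largest difference of the complex. It scored 12.7 in BAT against 10.8 in liver and 10.7 in WAT, a difference of 1.996 from WAT and 1.96 from liver. Among the other subunits of the electron path, Ndufs7 was 1.88 above WAT and 1.38 above liver, Ndufv2 was 1.80 and 1.36 above them, Ndufs8 was 1.74 and 0.823 above, and the flavin-carrying Ndufv1 was 1.58 and 1.04 above. Ndufa2, an accessory subunit, had the smallest difference from WAT in the complex, 0.213 units. Ndufa8, whose promoter is printed above, was 1.30 units above WAT and 1.21 above liver.

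Complex II was higher in BAT in 3 of 3 members. Sdhb, the iron-sulfur subunit, scored 13.9 in BAT against 12.8 in liver and 11.97 in WAT, a difference of 1.92 from WAT and 1.13 from liver. Sdha, the flavoprotein, was 1.81 above WAT and 1.25 above liver, and Sdhc, a membrane anchor, was 0.990 and 0.885 above.

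Complex III had the largest median difference between BAT and WAT of the complexes with more than 3 members, 1.71 units, with 6 of 6 members higher and 5 by at least 1 unit. Uqcrc1, a core protein, scored 13.2 in BAT against 11.7 in liver and 10.9 in WAT, and its difference of 2.31 from WAT was the largest of the 45 members. Cyc1, cytochrome c1, was 1.998 above WAT, and Uqcrfs1, the Rieske iron-sulfur protein, was 1.91 above. Uqcrb, a small subunit with a score of 14.5 in BAT, was 0.860 above WAT and 0.304 above liver. Cycs, the somatic cytochrome c, scored 13.96 in BAT, 12.7 in WAT and 12.4 in liver.

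Complex IV had smaller differences, with a median of 0.749 between BAT and WAT and 3 of 10 members at least 1 unit higher. These were Cox5a at 1.27, Cox5b at 1.22 and Cox6c at 1.14. Complex IV subunits exist in tissue forms, and the forms differed in their tissue order. Cox4i1, the general form of subunit 4, scored 14.2 in BAT against 13.4 in liver and 13.3 in WAT, while Cox4i2, its form in lung, scored 6.67, 6.89 and 6.54. Cox6a1, the general form of subunit 6a, scored 14.6 in BAT against 14.01 in liver and 13.99 in WAT, while Cox6a2, the heart and muscle form, scored 7.02 ± 0.247 (SD, n = 7) in BAT against 7.39 in liver and 7.01 in WAT. Cox4i2, Cox6a2 and Cox7c scored under 9 in all tissues, while the median probe set of an array scored 6.78 to 6.92.

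The heart and muscle forms Cox7a1 and Cox8b were not on the list of 46, and they differed far more. Cox7a1 scored 13.2 in BAT, 7.29 in WAT and 6.69 in liver, and Cox8b scored 14.1, 8.03 and 6.60. Their general counterparts on the list, Cox7a2 and Cox8a, were 0.771 and 0.727 units higher in BAT than in WAT. Cox8a was the only member at least 1 unit higher in WAT than in liver, with 12.8 in WAT, 11.8 in liver and 13.6 in BAT.

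Complex V was 0.926 units higher in BAT than in WAT at the median, in 4 of 4 members. Atp5d, the delta subunit, was 1.39 above WAT and 0.815 above liver, and Atp5a1, the alpha subunit, was 1.08 and 1.18 above. Atp5b, the beta subunit, and Atp5c1, the gamma subunit, were 0.769 and 0.618 above WAT.

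Liver was higher than WAT in 36 of 45 members, with a median difference of 0.345 units, where 44.4% of all probe sets were higher in liver. A difference of at least 1 unit was found in 1 member, against 3.95% of all probe sets. This was Uqcrq, a small subunit of complex III, with 13.2 in liver and 12.1 in WAT. Cytochrome c, Uqcrc2, Cox7c, Cox8a, Atp5a1 and 4 subunits of complex I (Ndufa2, Ndufb3, Ndufb7 and Ndufb8) had the opposite direction, with Ndufb3 at 11.9 in WAT and 10.9 in liver.

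The probe sets of a gene did not all give the same order. Of the 77 probe sets of members with a score of 9 or over in some tissue, 77 were higher in BAT than in WAT, 77 higher in BAT than in liver and 58 higher in liver than in WAT. Of the 23 dimmer probe sets, 16, 16 and 11 had these directions.

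Other genes of the pathway were read from lists chosen with earlier results of these data known. Of 33 further subunits, 28 were higher in BAT than in WAT and 19 by at least 1 unit, against 36.6% and 1.77% of all probe sets. An exception was Atp5g1, which codes for the c subunit of the ATP synthase and scored 7.88 in BAT, 10.0 in WAT and 12.2 in liver. Atpif1, the inhibitor of the ATP synthase, was 1.85 units lower in BAT than in WAT. The mitochondrial transcript ND5, a complex I subunit made in the organelle, was 0.702 units higher in BAT than in WAT. Of 27 assembly factors, 25 were higher in BAT than in WAT, 7 of them by at least 1 unit, with a median of 0.624. Of 12 regulators, 9 were higher, and the coactivators Ppargc1b and Ppargc1a were higher by 3.05 and 1.51 units, whereas Yy1 was 1.15 units lower and Nrf1 0.703 lower.

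In the liver, most subunits had a slightly lower score after CAAM. The mean score was lower in CAAM-treated than in water-treated mice in 43 of 45 members, where 55.5% of all probe sets and 56.7% of those with a liver score of 11 or over were lower. The median difference of the members was −0.89 SD, against −0.09 SD over all probe sets. No member passed limma after adjustment over all probe sets, as 0% of all probe sets did, and no member was called by rank products, which called 1.18% of all probe sets lower and 1.63% higher. At an unadjusted limma p of 0.05, 13 members were lower and none higher, against 4.03% of all probe sets lower and 2.74% higher. The lower members were 6 of 21 in complex I, 2 of 3 in complex II, 3 of 6 in complex III, 1 of 10 in complex IV and 1 of 4 in complex V.

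The median over the 45 members in each liver separated the groups. It was −0.43, −0.41, −1.46, −1.11 and −1.42 SD from the water mean in CAAM mice 2, 4, 5, 6 and 7. In the water mice it ran from −0.33 to 0.41 SD with a median of 0.03. The 5 CAAM livers lay below the 7 water livers, 2 of them by little. The differences are minute on the scale of the score: their median size over the members was 3.91e-06 score units. The same median over the 33 further subunits did not separate the groups. It was 0.09, 0.07, −1.48, −0.95 and −1.14 SD in CAAM mice 2, 4, 5, 6 and 7, and from −0.49 to 0.54 SD in the water mice.

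**Figure D3:**
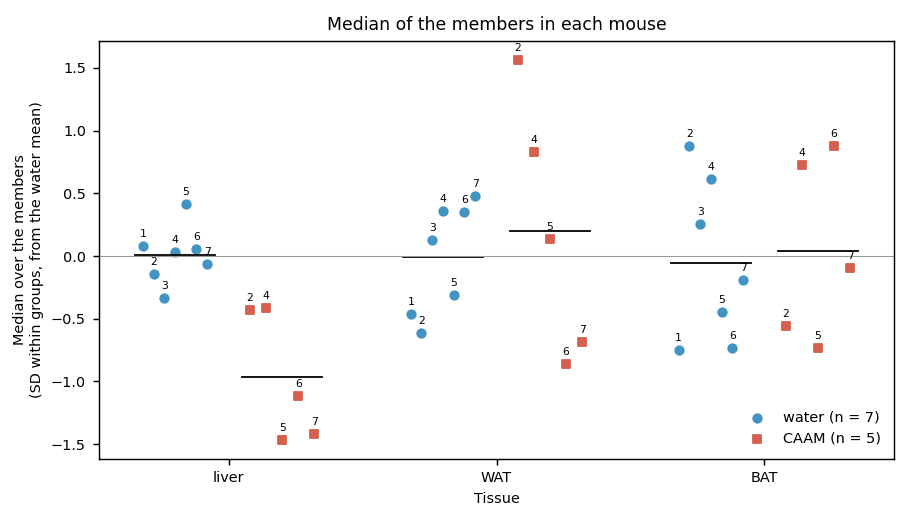
Median over the 45 members in each mouse, in SD within groups from the mean of the water mice, for liver, WAT and BAT, with the mouse number at each point and the group mean as a line. In liver the 5 CAAM mice lie between −1.46 and −0.41 and the 7 water mice between −0.33 and 0.41, while in WAT and BAT the groups overlap.

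Sdhb and Ndufs7 were the 2 members whose groups did not overlap in liver, which held for 0.275% of all probe sets with the CAAM group lower. Sdhb values were −2.37, −4.40, −6.21, −3.91 and −4.70 SD from the water mean in CAAM mice 2, 4, 5, 6 and 7, and from −0.78 to 0.84 SD with a median of 0.06 in water mice. Every CAAM liver lay below every water liver for this iron-sulfur subunit of succinate dehydrogenase. The difference was −9.68e-06 ± 1.51e-06 (SE) score units at a score of 12.8, or −4.32 SD, with p = 0.00126 by the two-sided exact permutation test, the smallest it can give over 792 divisions of the mice, and an adjusted p of 0.535 by limma. An SD of this probe set corresponds to 224 units of the last deposited digit.

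Ndufs7, the subunit with the last iron-sulfur cluster before ubiquinone, had −2.91, −2.49, −3.83, −4.23 and −2.62 SD in the same 5 mice and from −1.69 to 1.57 SD in water mice. The difference was −3.22 SD, with an exact permutation p of 0.00126 and an adjusted p of 0.535 by limma. A second probe set of Ndufs7 had −1.27 SD. Ndufs3, another core subunit of complex I, had −1.93 SD, with all 5 CAAM livers under the median water liver and an exact permutation p of 0.0101. Cox6a2 had −1.92 SD with an exact permutation p of 0.0114 at a liver score of 7.39, and its second probe set had −0.19 SD.

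Further members with an unadjusted limma p under 0.05 had 5 of 5 CAAM livers below the water median. They were chosen on the same liver values, so this count is no separate support. They were Atp5a1 at −2.34 SD, Ndufa9 at −1.97, Ndufb5 at −1.85, Uqcrb at −1.71, Ndufb3 at −1.63, Ndufs1 at −1.53, Cyc1 at −1.47, Sdha at −1.46 and Uqcrc1 at −1.34. A second probe set with a liver score of 9 or over had −0.21 SD for Ndufb5, −0.38 for Uqcrb, −1.50 for Atp5a1 and −1.14 for Sdha. By exact permutation Ndufb5 had p = 0.00379, Atp5a1 0.00505 and Ndufb3 0.00758, all lower than that of Ndufs3. Ndufb9, at −2.11 SD and an unadjusted limma p of 0.0758, had an exact permutation p of 0.00379. Another bright probe set of Ndufb9 had −0.40 SD. The members with a higher mean were Cox7c at 0.38 SD and Cox6a1 at 0.20 SD, with exact permutation p-values of 0.545 and 0.751. Cycs, the electron carrier between complexes III and IV, differed by −0.05 SD.

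**Figure D4:**
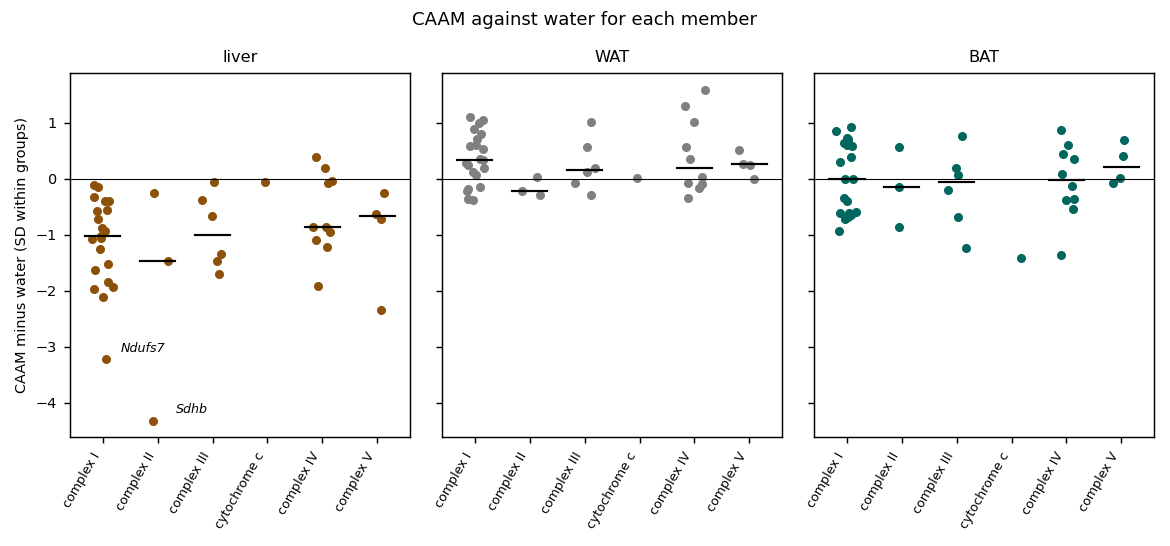
Difference between CAAM and water mice for each member, in SD within groups, by complex in liver, WAT and BAT, with the median of each complex as a line. In liver 43 of 45 points lie below 0, with Sdhb at −4.32 and Ndufs7 at −3.22, while in WAT 31 and in BAT 22 points lie above 0.

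The liver direction depended on the scaling between arrays. Under quantile normalization 28 members kept the same rank in all 12 livers and so had no difference, among them Sdhb, Ndufs7 and Ndufs3, while 11 were lower and 6 higher, where 77.4% of all probe sets were lower. Centring each array on its median put 45 members lower, but it moved the median of all probe sets by −0.000108 score units and made 95.6% of all probe sets lower. Without CAAM mouse 5, 6 or 7 the members with an unadjusted limma p under 0.05 numbered 7, 8 and 8.

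Other lists were read in the same livers, and no gene of them passed limma after adjustment. Of 33 further subunits, 29 had a lower mean score, with a median of −0.61 SD, and 18 of 27 assembly factors did, with a median of −0.20. Of all probe sets 55.5% were lower, at a median of −0.09 SD. Of 12 regulators 4 were lower. Skeletal muscle markers, which scored 6.53 on average in each liver, had a lower mean in 13 of 14 genes, at a median of −0.65 SD, and brown adipocyte markers in 6 of 7, at −0.37 SD. Macrophage markers were higher in 12 of 12 genes, at a median of 1.33 SD. Rank products called 10 of them higher, against 1.63% of all probe sets. The mean macrophage marker score ran from 9.205 to 9.212 in water and from 9.210 to 9.217 in CAAM livers, and in SD the median marker was highest in CAAM mouse 5 at 3.02, followed by CAAM mouse 7 at 1.53 and water mouse 3 at 1.35. The part of macrophages in the values of the subunits was not tested.

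In WAT the CAAM mean lay above the water mean for 31 of 45 members and below it for 14, where 48.9% of all probe sets and 55.3% of those with a WAT score of 11 or over were lower, and the median difference was 0.24 SD. Single mice decided this count: 27 members were lower without CAAM mouse 2, 6 without CAAM mouse 6 and 7 without CAAM mouse 7. With centring or quantile normalization 45 members were higher, where 3.39% and 32.3% of all probe sets were lower, and centring moved the median of all probe sets by 0.000317 score units. No member passed limma after adjustment, as 0% of all probe sets did, and rank products called no member, against 1.95% of all probe sets lower and 0.824% higher. At an unadjusted limma p of 0.05, 2 members were higher and none lower, against 1.97% and 2.0% of all probe sets. Without 1 mouse these numbered 0 (CAAM mouse 4) to 5 (CAAM mouse 6).

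Those 2 members belong to complex IV. Cox7c had −0.97, 2.44, 2.32, 2.06 and 2.07 SD in CAAM mice 2, 4, 5, 6 and 7 and from −0.90 to 0.70 SD in water mice, a difference of 1.58 SD with an exact permutation p of 0.0316. Its score in WAT of the water mice was 7.30, where the median member scored 11.9. In this gene 4 CAAM mice lay above all water mice and CAAM mouse 2 below them. Cox4i1 had 1.09, 1.205, 0.94, 3.35 and −0.10 SD, against −1.01 to 0.83 in water mice, a difference of 1.30 SD with an exact permutation p of 0.0404. Next in order of p were Ndufb8 at 1.10 and Ndufb7 at 1.05 SD, and on the lower side Ndufb10 at −0.38, Ndufs1 at −0.37, Cox4i2 at −0.34 and Sdhc at −0.30 SD, with exact permutation p-values from 0.0934 to 0.622.

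The median member was 1.57, 0.83, 0.14, −0.86 and −0.68 SD in CAAM mice 2, 4, 5, 6 and 7 and from −0.61 to 0.48 SD in the water mice. CAAM mice 2 and 4 were above all water mice and CAAM mice 6 and 7, 2 of the arrays that lay apart, below them. Without the 4 arrays that lay apart 4 members were lower, the median was 0.97 SD, and 49.0% of all probe sets were lower. In water mice 1 and 2 the median epididymis marker scored 10.6 and 9.49 in WAT, against 6.38 to 6.72 in the other 10 arrays. Of 9 epididymis markers, 5 were lower in every CAAM than in every water array, where 0.124% of all probe sets were. An unadjusted limma p under 0.05 was found in 3, all lower, where 2.0% of all probe sets had it. Rank products called 6 lower and 3 higher, against 1.95% and 0.824% of all probe sets. The part of that tissue in the values of the members was not tested.

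In BAT, where the scores were highest, 22 members had a lower and 22 a higher mean after CAAM, and Ndufs8 had no difference at the last deposited digit. Of all probe sets 50.6% were lower, and 44.2% of those with a BAT score of 11 or over. Ndufs8 was thus the median member. With centring 44 and under quantile normalization 43 members were higher, where 1.48% and 2.57% of all probe sets were lower, and centring moved the median of all probe sets by 0.000373 score units. No member passed limma after adjustment, as 0% of all probe sets did, and no member had an unadjusted limma p under 0.05, against 2.64% of all probe sets lower and 3.77% higher. Without CAAM mouse 4 there were 2 such members. Cycs had the lowest limma p, at −1.41 SD, with all 5 CAAM mice under the median water mouse and an exact permutation p of 0.0429. Cox7a2 had −1.36 SD with a lower exact permutation p of 0.0290, at an SD of 28.7 units of the last deposited digit, and Uqcrb had −1.25 SD. Next by limma p on the same side were Ndufb7 at −0.94, Sdhc at −0.87 and Ndufb2 at −0.68 SD, and on the other Ndufs1 at 0.85, Ndufb8 at 0.72, Ndufv1 at 0.64 and Cox7c at 0.60 SD.

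The spread of the members in BAT was at the limit of the deposited digits for some. The SD between mice of Cox4i1 was 3.8 units of the last digit and that of Uqcrb 5.3 units, so their values in SD are coarse.

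Rank products called Cox6a2 lower in BAT, where it called 2.05% of all probe sets lower and 1.2% higher. This muscle form of subunit 6a scored 7.31, 6.84, 6.84, 6.86 and 6.82 in CAAM mice 2, 4, 5, 6 and 7, and from 6.85 to 7.49 with a median of 6.88 in water mice. The groups overlapped, and the difference was −0.088 ± 0.132 (SE) score units with an exact permutation p of 0.533. Its SD of 0.233 was exceeded by 34 of 45037 probe sets in BAT. The 4 highest values were those of water mice 1, 3 and 7 and CAAM mouse 2, at 7.49, 7.22, 6.98 and 7.31. In the same 4 arrays the mean of 14 skeletal muscle markers was 10.5, 9.70, 8.60 and 10.0, and in the other 8 it was 6.87 to 7.42. All 14 markers had a lower mean in CAAM mice, and the part of muscle in the Cox6a2 call was not tested. Without these 4 arrays 21 of 45 members were lower in BAT, at a median of 0.18 SD, with 49.8% of all probe sets lower.

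Whether the effect of CAAM differed between tissues was tested by limma on within-mouse differences of the values in SD. Sdhb and Ndufs7 passed an adjusted p of 0.05 for BAT against liver, where 0.273% of all probe sets did, and for liver against WAT, where 0.329% did. No member passed for BAT against WAT, where 0.0622% of all probe sets did and the lowest adjusted p of a member was 0.437 for Ndufb7. For Sdhb the effect in liver minus that in WAT was −4.10 SD (adjusted p = 0.00143), and the effect in BAT minus that in liver was 4.17 SD (adjusted p = 0.000891). For Ndufs7 these were −3.06 SD (adjusted p = 0.0454) and 3.80 SD (adjusted p = 0.00470). In score units the Sdhb difference was −9.68e-06 in liver, −3.23e-05 in WAT and −3.71e-08 in BAT. Its SD within groups was 2.24e-06, 0.000150 and 2.52e-07 in these tissues. The Sdhb difference was thus larger in WAT than in liver in score units, and smaller in SD. For Ndufs7 the differences were −1.44e-05, −3.11e-06 and 1.06e-06 score units in liver, WAT and BAT. Leaving out each of the 12 mice in turn, Sdhb passed in 12 of 12 fits for liver against WAT and Ndufs7 in 3, and both passed in 12 of 12 for BAT against liver, where the number of members that passed rose to 4 without CAAM mouse 2 or water mouse 2. Under quantile normalization, where neither gene had a difference in liver, no member passed limma in either comparison, and 1 member in each had an unadjusted p under 0.05.

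The values of Sdhb in WAT of the 5 CAAM mice were 0.92, 0.75, −0.07, −2.67 and 0.00 SD, and in BAT −1.06, 0.73, −1.66, 0.89 and 0.37 SD. Those of Ndufs7 were 0.75, 1.47, −1.01, −2.33 and 0.35 SD in WAT and −0.56, 2.25, −0.49, 0.93 and 0.79 SD in BAT. Both genes overlapped between groups in both fat tissues. Dividing by an SD taken from the same arrays makes these adjusted p-values too small. An unadjusted limma p under 0.05 was found in 8.65% to 9.96% of all probe sets in the 3 comparisons, and what raised this share was not tested. With the SD taken anew in each division of the mice, the exact permutation p was 0.00126 for both genes in both comparisons, the smallest possible. By this test 11 of 45 members had p under 0.05 for BAT against liver, where 6.32% of all probe sets did, and 13 for liver against WAT, where 6.43% did. Among them for BAT against liver were Atp5a1 with p = 0.00253 and Ndufs3 with p = 0.0278 by exact permutation.

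**Figure D5:**
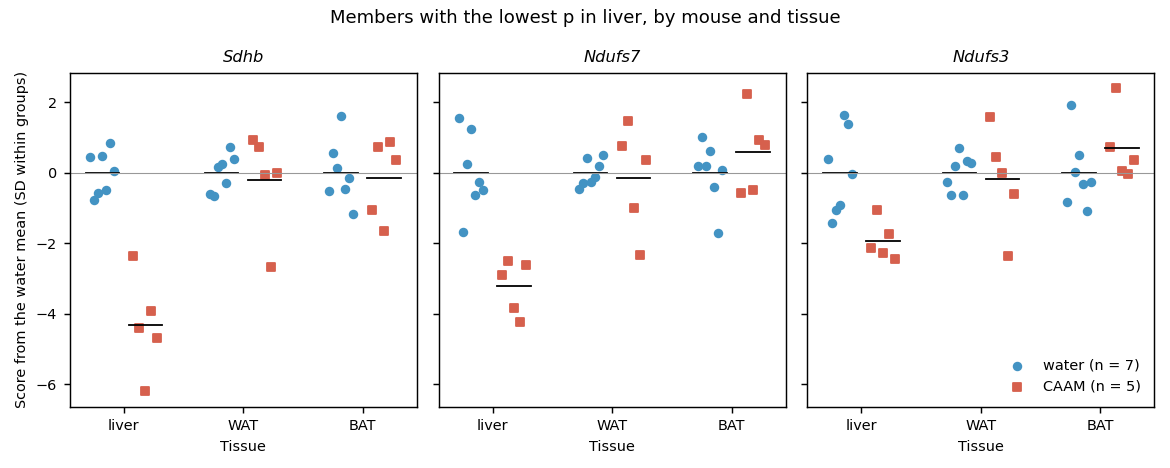
Values of Sdhb, Ndufs7 and Ndufs3, the 3 members with the lowest limma p in liver, in each mouse and tissue, in SD within groups from the mean of the water mice, with group means as lines. In liver the CAAM mice of Sdhb and Ndufs7 lie below all water mice, from −6.21 to −2.37 and from −4.23 to −2.49, and in WAT and BAT the groups overlap.

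Among the other pathway genes in the fat tissues, 21 of 33 further subunits were higher in WAT after CAAM and 20 of 33 lower in BAT, with none past limma after adjustment. Of all 45037 probe sets, 22956 were higher in WAT, while 22794 were lower and 22105 higher in BAT. ND5 was lower in BAT by 1.64 SD. Of 12 regulators 9 were higher in WAT and 9 in BAT, at medians of 0.42 and 0.29 SD.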

How the data were processed

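Total RNA of each tissue was hybridised to 1 array per mouse and tissue. Per the study's methods, the authors quantified the scanner files by the DFW method with Bioconductor, and the submission notes name R 2.7.2. The deposited table holds a score for each probe set on each array, with up to 8 decimals. Whether arrays of other groups entered that run is not known. The deposited scores are no log2 values. The tests planned for log2 values were kept, and differences were also divided by the pooled SD within groups. How this weighting acts on small differences was not tested. The 64 control probe sets were left out of 45101. Of the rest, 34945 had a single symbol in the platform annotation, 9160 had no symbol, and 932 had several and were not used for genes. No replicate array exists, so p-values measure the spread between mice and that between arrays together, which cannot be told apart.

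Tests ran over all 45037 probe sets. CAAM and water mice were compared within each tissue by rank products as in the study's methods (100 permutations of the values within each array, 20 for alternatives, called where the estimated false discovery rate was under 0.05), written in python 3.11.15 with numpy 2.4.6, pandas 2.3.3 and scipy 1.17.1, and by limma 3.58.1 in R 4.3.3 with Benjamini-Hochberg adjustment. Both tests were checked on simulated data. Tissues were compared by limma on within-mouse differences of the water mice. Single members were tested by exact permutation over 792 divisions, two-sided. Counts of lower and higher means used a tolerance of 1e-08 score units. Figures were drawn with matplotlib 3.10.9.

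The members and the lists of other genes were chosen with earlier results of these data known. Members named after CAAM were those with the lowest limma p in each direction in a tissue, those whose groups did not overlap and those called by rank products. Others, such as Ndufb9 in liver and Cox7a2 in BAT, were named outside this rule and are not among the 23 named differences below. As alternatives, arrays were quantile normalized or centred on their medians, dim probe sets were left out, all probe sets of a gene were averaged, mouse number was a replicate block, rank products used differences in SD, limma used trend and robust priors, and each mouse was left out in turn. Leaving out the arrays that lay apart, the limit of 11 on the score and the permutation test of the difference of effects were chosen after seeing the data.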

Additional observations from a re-analysis of the deposited data

Results flagged for a closer look

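The values of the named members in each group and tissue, 46 groups in all, were searched for a mouse far from the others, by the gap to the nearest mouse as a share of the whole range, and 3 were found, where chance gives about 1 in 20 groups. The share was 0.887 for Cox7c in WAT, where CAAM mouse 2 was lowest, and 0.617 for Ndufb8 in BAT, where water mouse 2 was highest. It was 0.933 for Cox6a2 in BAT, where CAAM mouse 2 was highest, and this mouse also had the highest skeletal muscle marker scores in BAT among the CAAM mice, at a median of 9.55 against 6.62 to 6.98 in the other 4.

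Differences in the effect of CAAM between tissues were tested for all members on values in SD, and 2 passed. Of all probe sets 0.273% passed for BAT against liver and 0.329% for liver against WAT. As said above, these adjusted limma p-values are too small, and no member passed under quantile normalization. The difference of effects between BAT and liver was 4.17 SD for Sdhb and 3.80 SD for Ndufs7, both past an adjusted limma p of 0.05. Between liver and WAT it was −4.10 SD for Sdhb and −3.06 SD for Ndufs7, also past it. Ndufs3 lay above the water median in BAT in 5 of 5 CAAM mice and below it in liver in 5 of 5, a difference of 2.63 SD with an adjusted limma p of 0.112, which did not pass.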

How the results depend on the processing

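The count of 43 members with a lower mean in liver was 41 with the mean of all probe sets of a gene, 42 with the replicate block, 45 with centring and 11 under quantile normalization, and ran from 38 to 43 without 1 mouse. Members with an unadjusted limma p under 0.05 in liver numbered 13 as reported, 42 with centring and 2 under quantile normalization, and 7 to 14 without 1 mouse. Centring made 95.6% of all probe sets lower in liver. For the alternatives, the share of all probe sets with such a p or called by rank products is not given. Their counts therefore show how the results move with the processing, and not how the members compare with other genes. Rank products called 3 members in liver when differences were divided by the SD, and 0 as reported. In WAT, 0 members were lower with centring and under quantile normalization, 4 without the 4 arrays that lay apart, 6 to 27 without 1 mouse (27 without CAAM mouse 2), against 14 as reported. Members with an unadjusted limma p under 0.05 in WAT numbered 0 with centring and under quantile normalization, 4 with the mean of all probe sets, and 0 to 5 without 1 mouse, against 2. Rank products called 2 members in WAT under quantile normalization. In BAT, 1 member was lower with centring and 2 under quantile normalization, against 22, and 18 to 26 without 1 mouse. With trend and robust priors 1 member had an unadjusted limma p under 0.05 in BAT, and 0 to 2 did without 1 mouse. Rank products on differences divided by the SD called 0 members in BAT, so Cox6a2 was not called.

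The mouse numbers are shared by the groups only as labels: same-numbered mice had correlated deviations of −0.15 to 0.15 in liver, −0.19 to 0.00 in WAT and −0.09 to 0.06 in BAT, and 1 of 5 CAAM livers matched its own number best. With the mouse number as a replicate block, members with an unadjusted limma p under 0.05 numbered 6 in liver and 0 in WAT, and Cox6a2 in BAT differed by 0.0468 score units instead of −0.088.

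Between tissues, at least 0.5 score units in place of 1 gave 38 members for BAT over liver and 15 for liver over WAT, against 23 and 1. For liver over WAT, quantile normalization of all arrays and the mean of all probe sets each gave 0 and centring gave 2. The share of all probe sets under these settings is not given. These counts therefore do not show how the members compare with other genes. Members whose CAAM effect differed numbered 0 under quantile normalization for BAT against liver and for liver against WAT, and 2 to 4 and 1 to 3 without 1 mouse.

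Of the 23 named differences, 4 in liver (Sdhb, Ndufs7, Ndufs3 and Cox6a1) were 0 under quantile normalization, and Cox6a2 in BAT changed sign with the replicate block as given above. With centring those that changed sign were −0.000103 for Cox7c and −0.000107 for Cox6a1 in liver, 0.000307 for Ndufb10, 0.000258 for Ndufs1, 0.000314 for Cox4i2 and 0.000241 for Sdhc in WAT, and 0.000371 for Cycs, 0.000370 for Sdhc, 0.000371 for Ndufb7 and 0.000369 for Ndufb2 in BAT. Under quantile normalization they were −8.57e-05 for Cox7c in liver, 0.000782 for Ndufb10, 0.000245 for Ndufs1, 5.44e-05 for Cox4i2 and 0.000409 for Sdhc in WAT, and 0.000252 for Cycs, 0.00235 for Sdhc, 0.00217 for Ndufb7 and 0.00309 for Ndufb2 in BAT. Centring moved the median of all probe sets by −0.000108 in liver, 0.000317 in WAT and 0.000373 in BAT, more than most members' own differences. With the mean of all probe sets they were −8.82e-07 for Cox7c and −3.22e-07 for Cox6a1 in liver and 1.55e-07 for Ndufb2 in BAT. Without 1 mouse, Cox6a1 in liver ran from −2.46e-07 (without water mouse 6) to 8.09e-07, and was −2.25e-07 without CAAM mouse 7. In WAT, Ndufb10 ran from −2.17e-05 to 2.49e-06 (without CAAM mouse 7), Ndufs1 from −0.000130 to 1.69e-05 and Sdhc from −0.000177 to 4.21e-05 (both without CAAM mouse 6). The cause of these changes was not tested otherwise. The number of arrays limits the precision.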

Other observations

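Sdhd, the second membrane anchor of succinate dehydrogenase beside Sdhc, was not on the list and had the widest spread of all subunits read. Its score in BAT was 7.57 in water mouse 2 and 6.67, 7.52 and 7.20 in CAAM mice 2, 6 and 7, and it was 12.8, 12.9, 12.9, 13.0, 12.8 and 13.7 in water mice 1, 3, 4, 5, 6 and 7 and 13.7 and 12.8 in CAAM mice 4 and 5. The same 4 mice had the 4 lowest scores in liver, from 6.87 to 7.14 against 9.06 to 9.63 in the other 8, and in WAT, from 6.56 to 6.68 against 8.12 to 8.54. A second probe set of Sdhd gave the same 4 mice the lowest scores in each tissue, with 6.39 to 6.81 against 9.03 to 9.67 in BAT. The 4 mice include 3 of the 5 CAAM mice and 1 of the 7 water mice, and rank products called Sdhd lower after CAAM in all 3 tissues and in liver also higher, where limma gave differences of −0.82 SD in liver, −0.84 in WAT and −0.99 in BAT, with unadjusted limma p-values of 0.178, 0.169 and 0.111, none of which passed.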
